A study of Mus musculus with 5 samples.

Results

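Liver of leptin-deficient ob/ob mice fed nordihydroguaiaretic acid (NDGA) was compared with liver of lean wild-type mice, to see which of its genes lay near the lean level and which lay far from it. The comparison takes 2 of the 5 arrays of the series by their titles, the ob/ob chow NDGA array and the WT chow array. After filtering, 8319 of the 16637 genes named on the array were expressed in this pair. All mice were on a C57BL/6 background. The lean control group was wild type on chow, and the group compared with it was ob/ob on chow with NDGA at 2.5 g per kg of food, kept on these diets for 16 weeks. The ob/ob chow array, without NDGA, is given beside the pair. The 2 wild-type high-fat arrays, without and with NDGA, give further readings of genes, list sums and distances from lean. All 5 arrays enter the normalization and the choice of probe. The pair differs in both genotype and NDGA, so these 2 factors cannot be told apart within it. The design text gives 3 animals per group; pooling of their RNA is not stated, and neither age nor sex is in the labels. Each group has 1 array, so no value has a replicate error and no difference could be tested.

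Ob/ob mice lack functional leptin, the fat-cell hormone that restrains feeding, and develop obesity, high insulin and a fatty liver. In such livers insulin drives fatty acid synthesis through SREBP-1c, and PPAR-gamma target proteins coat the lipid droplets that store the triglyceride. NDGA is a lignan of the creosote bush that scavenges radicals and inhibits lipoxygenases, the enzymes that oxidise arachidonic acid. PPAR-alpha, named in the study's title, is the fatty-acid-sensing nuclear receptor that switches on peroxisomal, microsomal and mitochondrial fatty acid oxidation.

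The NDGA-fed ob/ob array was the brightest of the 5. Its median probe intensity was 71.0, against 38.8 for WT chow, 39.6 and 47.0 for wild type on high-fat diet without and with NDGA, and 38.1 for ob/ob chow. It was 1.83 times as bright as WT chow at the median probe. It was 2.32 times as bright by the median of 15 housekeeping genes, at 859 against 371. The 5 arrays were therefore quantile normalized, which gives each the same distribution of values, and differences were taken as log2(value + 50), NDGA-fed ob/ob minus WT chow. The offset of 50 compresses the differences of dim genes. "Far" means a log2 difference of at least 1 in size, which is 2-fold, and "near" means within 0.5. The 18 expressed genes with probes above 65000 on both arrays, the top of the scale, count as near, though their distance was not measured.

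By this measure 621 expressed genes (7.46%) were at least 2-fold higher in NDGA-fed ob/ob liver than in lean liver. Another 267 (3.21%) were at least 2-fold lower, and 5057 (60.8%) were near the lean level. Of the genes that were far, 69.9% were higher. The median difference of all expressed genes was -0.04.

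The scaling decided these counts. Left unscaled, the pair gave 2226 genes higher and 110 lower, 95.3% of them higher, around a median of 0.54. Median centring gave 982 higher and 191 lower, 83.7% higher, around a median of 0.10. Scaling to the housekeeping genes turned the balance to 155 higher and 1262 lower, 10.9% higher, around a median of -0.50. That factor is a ratio of 2 medians and did not bring the housekeeping genes level: the 12 expressed ones had a median of -0.63 under it, beside 0.55 unscaled and -0.09 after quantile normalization. Scaling to the 75th percentile, a loess on brightness and quantile normalization of the 2 arrays alone gave 669 to 684 genes higher and 254 to 279 lower. Once each scaling's own median was subtracted, the 7 scalings came together: 672 to 798 genes were higher, 221 to 262 were lower, and 59.7% to 61.3% were near. Part of this is built in. No scaling and median centring differ by a constant per array and became identical. Scaling to the 75th percentile or to housekeeping genes differs from no scaling by 1 factor per array, apart from the offset. The sign of the difference depended on the scaling for 5290 of the 8319 genes, and only 224 genes lay within 0.5 of the lean level under each of the 7. "Near" here is therefore a place relative to the bulk of genes on the array, not an equal amount of RNA. At the other end, 160 genes (1.92%) were at least 2-fold higher and 111 (1.33%) at least 2-fold lower under each of the 7 scalings.

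**Figure D1:**
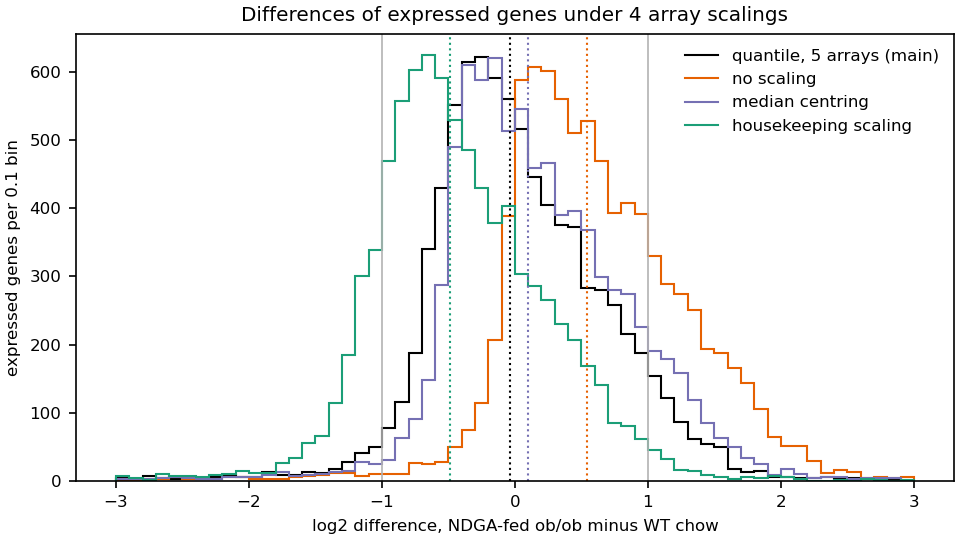
Histogram of the log2 difference, NDGA-fed ob/ob minus WT chow, for the expressed genes under 4 of the 7 scalings (x axis: log2 difference; y axis: genes per bin of 0.1; dotted lines: medians; grey lines: 2-fold). The curve keeps its shape and slides from a median near -0.50 with housekeeping scaling to 0.54 with no scaling.

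NDGA-fed ob/ob liver stood farther from lean liver than ob/ob chow liver did. In ob/ob chow against WT chow, 235 genes (2.82%) were at least 2-fold apart in either direction, against 888 (10.7%) in NDGA-fed ob/ob. The median size of a gene's difference, relative to the median of all genes, was 0.17 in ob/ob chow and 0.39 in NDGA-fed ob/ob. It was 0.27 in wild type on high-fat diet and 0.17 in wild type on high-fat diet with NDGA. Under each of the 7 scalings the NDGA-fed ob/ob array had the largest of the 4, at 0.39 to 0.42. The 4 comparisons share the WT chow array. The NDGA-fed ob/ob array was also the brightest, and the part of its brightness in these distances was not tested beyond the 7 scalings.

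The precision can be read only from genes with several probes. In 853 genes with 2 probes above the filter, the probes differed with an SD of 0.51 per probe. Among the 89 of them whose first probe was at least 2-fold apart, the second had the same sign in 68 and was also 2-fold apart in 18. A gene read by 1 probe at just over 2-fold is thus a weak statement. The liver label held: 14 of 16 hepatocyte markers were expressed, with Alb at the top of the scale on both arrays. Of these 14 markers, 9 counted as near the lean level, Alb among them, and 1 was lower. Lep, the gene mutated in ob/ob mice, read 15.8 in WT chow and 8.65 in NDGA-fed ob/ob, both near background, so it does not check the genotype.

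**Figure D2:**
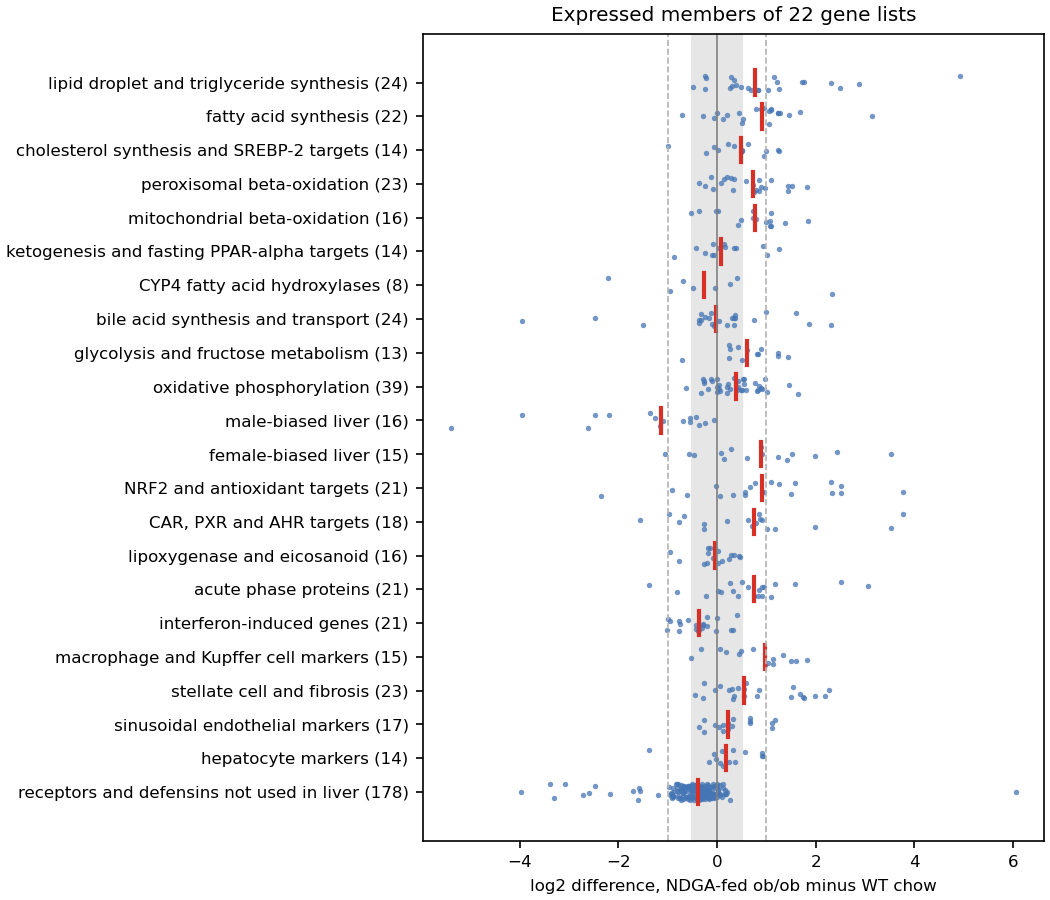
Log2 difference, NDGA-fed ob/ob minus WT chow (x axis), of each expressed member (dot) of 22 gene lists (y axis, with the number of expressed members). Red bars mark list medians, the grey band the range within 0.5 of lean and dashed lines 2-fold. Fatty acid synthesis (median 0.92) and macrophage markers (0.97) lie to the right, male-biased genes (-1.13) to the left.

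Of 1015 genes named on the array from 53 fixed lists, 756 were expressed. Of those, 122 were at least 2-fold higher, 28 lower and 387 near. With all 7 scalings required, 50 stayed higher and 12 stayed lower, while 10 stayed near. The counts per list below stand beside 7.46% higher, 3.21% lower and 60.8% near among all expressed genes.

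Genes of the lipid droplet and of triglyceride synthesis were split between far above lean and near it. Of 24 expressed members of 28 named, 10 were higher, 0 lower and 10 near, with a median of 0.76 against -0.04 for all expressed genes. Cidea, a droplet-fusion protein typical of brown fat and of steatotic liver, read 106 in WT chow, 968 in ob/ob chow and 7751 in NDGA-fed ob/ob, and 442 and 1078 in wild type on high-fat diet without and with NDGA. Only WT chow was dim and only NDGA-fed ob/ob was far above the rest. The difference was 4.93, or 30.5-fold, and ranged from 4.52 to 5.64 over the scalings. Cidec, whose product enlarges droplets, read 1533 in WT chow, 5680 in ob/ob chow, 19421 in NDGA-fed ob/ob, and 6449 and 5933 on the high-fat arrays. WT chow was the lowest of the 5 and NDGA-fed ob/ob the highest, 2.89 apart (2.42 to 3.62). Plin4, a droplet coat protein, was higher by 2.48 (2.10 to 3.11). Mogat1, an acyltransferase that makes diacylglycerol, was higher by 2.30 (1.86 to 2.90). Pparg, the receptor that drives several of these genes, was higher by 0.84 (0.35 to 1.49), short of 2-fold.

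Other droplet genes sat near the lean level. Plin2, the most abundant droplet coat protein of hepatocytes, read 15928 in WT chow, 13289 in ob/ob chow and 34207 in NDGA-fed ob/ob, a difference of 0.38 that ran from -0.11 with housekeeping scaling to 1.10 unscaled. Bscl2, which encodes seipin, stood at -0.24 (-0.77 to 0.44), and Cideb, a relative of Cidea active in lipoprotein lipidation, at -0.22 (-0.65 to 0.56). For these 3 genes the sign turned with the scaling.

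The defining adipocyte genes did not accompany Cidea and Cidec. Adipoq read 39.4 in WT chow and 36.3 in NDGA-fed ob/ob, and Plin1 read 15.9 and 18.8, all below an intensity of 50. Of 10 adipocyte genes named, 6 were expressed and 2 were higher, Cidec itself and Lpl. The summed intensity of the list was 8639 in WT chow, 15149 and 15709 on the high-fat arrays, 10610 in ob/ob chow and 35976 in NDGA-fed ob/ob. The last was 4.16 times the WT chow sum, against 1.54 times for all genes before scaling. Cidec alone gave most of that rise. Cfd, another adipocyte gene, was at -0.99 in NDGA-fed ob/ob and -2.17 in ob/ob chow. In whole-liver RNA, the number of cells of a type and the RNA per cell cannot be told apart.

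Fatty acid synthesis was the metabolic list with the highest median. Of 22 expressed members of 24 named, 10 were higher, 0 lower and 6 near, with a median of 0.92 (0.96 to 1.11 relative to all genes over the scalings). Scd2, a stearoyl-CoA desaturase little used by normal adult liver, read 291 in WT chow, 1059 in ob/ob chow, 4794 in NDGA-fed ob/ob, and 438 and 378 on the high-fat arrays. Both ob/ob arrays exceeded all 3 wild-type arrays, and the difference from lean was 3.13 (2.67 to 3.83). Fasn, the fatty acid synthase, read 3773, 6697 and 20869 in WT chow, ob/ob chow and NDGA-fed ob/ob. It was higher than lean by 1.68 (1.25 to 2.45). Elovl6, which extends palmitate, was higher by 1.46 (0.97 to 2.14), and Acly, which supplies cytosolic acetyl-CoA, by 1.28 (0.82 to 1.93). Scd1, the main hepatic desaturase, was saturated on both arrays, so its distance from lean was not measured, though it counts as near. Fads2, a desaturase of polyunsaturated fatty acids, was near at 0.01 (-0.40 to 0.80), though the mean of its 2 probes was 0.78.

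Cholesterol synthesis was mixed. Of 14 expressed members, 2 were higher, beside 7.46% of all expressed genes, 0 lower and 7 near, with a median of 0.49. Msmo1 and Sc5d, which act late in sterol synthesis, were higher by 1.26 (0.74 to 1.90) and 1.23 (0.73 to 1.92). Fdps, which makes farnesyl diphosphate, was near at 0.02 (-0.46 to 0.74). Srebf2, which encodes the transcription factor of this pathway, was at -0.98 (-1.50 to -0.33), below lean under each of the 7 scalings. Among 21 expressed apolipoprotein and lipoprotein genes 16 were near, beside 60.8% of all expressed genes, with a median of -0.01. Apoa4, an apolipoprotein raised in steatotic liver, read 17011 in WT chow and was saturated in NDGA-fed ob/ob. With housekeeping scaling, its difference of 0.74 is a lower bound. The 1.75 by quantile normalization rests on a rank among saturated probes and is not a bound. Apoa4 read 61888 in ob/ob chow, 65346 on high-fat diet and 11022 on high-fat diet with NDGA.

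Fatty acid oxidation genes were partly above lean and partly near it in NDGA-fed ob/ob, and their list medians in ob/ob chow were close to 0. In the peroxisomal list of 23 expressed genes, 5 were higher, 0 lower and 10 near, with a median of 0.74, beside 0.01 in ob/ob chow. The mitochondrial list of 16 had 7 higher, 0 lower and 5 near, with a median of 0.77, beside -0.02 in ob/ob chow. Decr2, a peroxisomal reductase for unsaturated fatty acids, read 804 in WT chow, 686 in ob/ob chow and 4816 in NDGA-fed ob/ob, with 2062 and 1588 on the high-fat arrays. It was higher than lean by 1.81 (1.33 to 2.51). Ehhadh, the peroxisomal bifunctional enzyme and a standard PPAR-alpha target, read 191, 150 and 958 in WT chow, ob/ob chow and NDGA-fed ob/ob, and 228 and 694 on high-fat diet without and with NDGA. Both NDGA arrays were above the 3 others, and the difference from lean was 1.43 (0.97 to 2.06). Pex11a, which divides peroxisomes, was higher by 1.44 (1.00 to 2.20), and Acot4, a succinyl-CoA thioesterase, by 1.52 (1.07 to 2.12). In mitochondria, Hadh, a hydroxyacyl-CoA dehydrogenase, was higher by 1.85 (1.37 to 2.55), but the mean of its 2 probes was 0.92. Acads and Acadl, short- and long-chain acyl-CoA dehydrogenases, were higher by 1.37 (0.92 to 1.99) and 1.10 (0.58 to 1.77). Cpt2, the inner carnitine palmitoyltransferase, was higher by 1.09 (0.58 to 1.77). Etfb, an electron carrier of the same pathway, was near at -0.02 (-0.46 to 0.75).

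The CYP4 genes, microsomal fatty acid hydroxylases, went in both directions. Of 8 expressed, 1 was higher, 1 lower and 4 near. Cyp4a14 read 777 in WT chow, 663 in ob/ob chow and 6970 in NDGA-fed ob/ob, and 1287 and 2883 on high-fat diet without and with NDGA. It was higher than lean by 2.33, or 5.03-fold, and by 1.90 to 3.09 over the scalings, with no difference between ob/ob chow and lean beyond 0.01. Cyp4f14, which hydroxylates leukotriene B4, read 23347 in WT chow and between 8512 and 12762 on the 4 other arrays. It was at -2.20 (-2.65 to -1.45), or 4.60-fold lower. Cyp4a10, 1 of the 4 counted as near, was saturated on both arrays, so its distance from lean was not measured.

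The fasting and ketogenic targets of PPAR-alpha were near lean at a share not far from the 60.8% of all expressed genes. Of 14 expressed, 10 were near and 2 higher, beside 7.46% of all expressed genes higher, with a median of 0.09. Fgf21, a fasting hormone of liver, was at 0.03 (-0.41 to 0.64) and Angptl4, a lipoprotein lipase inhibitor, at 0.14 (-0.30 to 0.90). Ppara itself read 615 in WT chow, 448 in ob/ob chow and 936 in NDGA-fed ob/ob, a difference of -0.08 (-0.56 to 0.57). Bdh1, the last enzyme of ketone body synthesis, was the highest of the expressed members at 1.25.

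**Figure D3:**
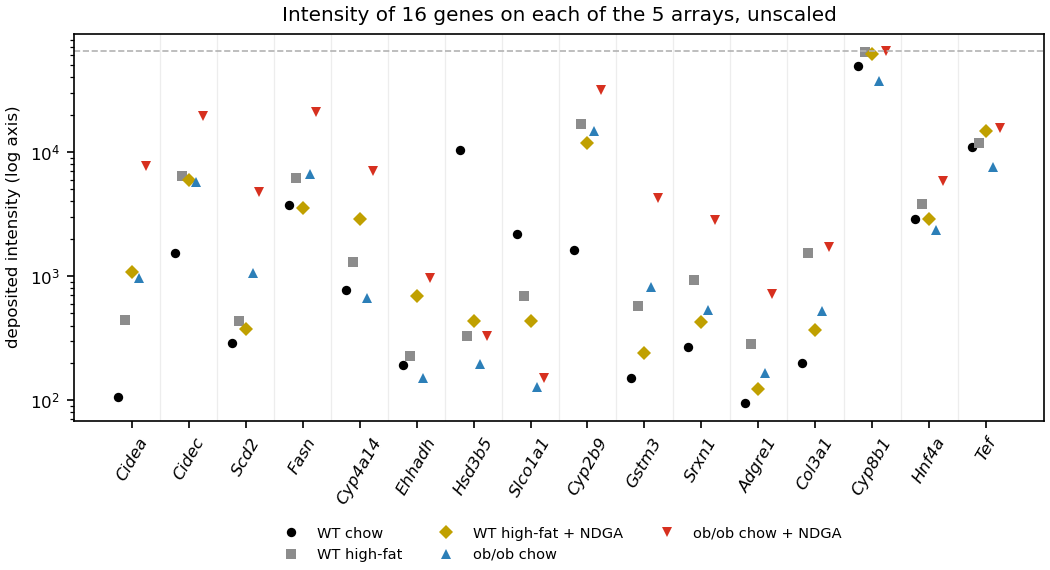
Deposited intensity without scaling (y axis, log scale) of 16 genes on each of the 5 arrays (symbols); the dashed line marks 65000, where the scanner saturates. Cidea reads 106 in WT chow and 7751 in NDGA-fed ob/ob, Hsd3b5 and Slco1a1 are brightest in WT chow, and Cyp8b1 is close to saturation on several arrays.

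Bile acid genes were near lean about as often as all expressed genes, of which 60.8% were near. Of 24 expressed, 16 were near, 3 higher and 3 lower, with a median of -0.01. Slco1a1, an organic anion uptake transporter typical of male liver, read 2199 in WT chow, 128 in ob/ob chow, 152 in NDGA-fed ob/ob, and 693 and 438 on the high-fat arrays. WT chow was above the 4 others, and NDGA-fed ob/ob was at -3.95 (-4.39 to -3.47), though the mean of its 2 probes was -2.50. Cyp7b1, an oxysterol hydroxylase of the alternative bile acid pathway, was at -2.47 (-2.92 to -1.95). Abcc4, a basolateral export pump, read 44.5 in WT chow, 170 in ob/ob chow and 673 in NDGA-fed ob/ob, and 61.5 and 47.9 on the high-fat arrays. It was higher by 2.32 (1.96 to 2.93). Abcb4, the phospholipid pump of the bile canaliculus, was higher by 1.87 (1.40 to 2.59). Cyp8b1, which makes cholic acid, was near at 0.04 (-0.81 to 0.40), but its 64660 in NDGA-fed ob/ob is close to saturation. Nr1h4, the bile acid receptor FXR, was near at -0.10 (-0.53 to 0.68).

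Energy metabolism genes differed from list to list, beside 7.46% of all expressed genes higher. Of 18 expressed citric acid cycle genes, 5 were higher and 0 lower, with a median of 0.50. Idh2, the mitochondrial NADP-linked isocitrate dehydrogenase, read 134 in WT chow, 145 in ob/ob chow and 1248 in NDGA-fed ob/ob, and 224 and 226 on the high-fat arrays. Only the NDGA-fed ob/ob array stood apart, by 2.19 from lean (1.73 to 2.82). Mdh2, mitochondrial malate dehydrogenase, was higher by 1.92 (1.42 to 2.59). Oxidative phosphorylation had 39 expressed genes, 3 higher, a share close to that of all genes, 0 lower and 23 near, with a median of 0.39 that was -0.09 with housekeeping scaling and 1.09 unscaled. In glycolysis and fructose metabolism 3 of 13 were higher and 0 lower, with a median of 0.61, and Pgk1, phosphoglycerate kinase, was higher by 1.44 (0.94 to 2.12). Gluconeogenesis and glycogen had 3 of 13 higher and 0 lower. Its largest member, Ppp1r3b, which targets phosphatase to glycogen, was higher by 1.58 (1.12 to 2.20). G6pc, which releases glucose from glucose 6-phosphate, was near at -0.12.

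In the IGF and leptin list, 2 of 17 expressed genes were higher, 2 lower and 7 near. Of all expressed genes, 7.46% were higher and 3.21% lower. Igfbp1, an insulin-repressed IGF binding protein, read 110 in WT chow, 170 in ob/ob chow and 1455 in NDGA-fed ob/ob, and 230 and 163 on the high-fat arrays. It was higher by 2.61 (2.15 to 3.23), with NDGA-fed ob/ob far above the 4 other arrays. Igfbp2, a binding protein that leptin raises, read 2631 in WT chow, 410 in ob/ob chow and 793 in NDGA-fed ob/ob, and was at -2.29 (-2.80 to -1.67). Lepr, the leptin receptor, was higher by 1.26 (0.80 to 1.91), and the mean of its 2 probes was 0.67.

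Genes with sex-biased expression in mouse liver, which growth hormone pulses set, lay on opposite sides of lean. Of 16 expressed male-biased genes, 9 were lower, 0 higher and 4 near, with a median of -1.13 (-1.11 to -0.99 relative to all genes over the scalings). The same list had a median of -1.28 in ob/ob chow. Hsd3b5, a steroid reductase of adult male liver, read 10382 in WT chow, 197 in ob/ob chow, 328 in NDGA-fed ob/ob, and 329 and 438 on the high-fat arrays. It was high on the WT chow array alone, and NDGA-fed ob/ob was 41.8-fold lower, at -5.38 (-5.84 to -4.79). Susd4, a membrane complement regulator, was at -2.61 (-2.97 to -2.13), and C6, a terminal complement component, at -2.20 (-2.68 to -1.50). Of 15 expressed female-biased genes, 6 were higher, 1 lower and 4 near, with a median of 0.88. Cyp2b9, a phenobarbital-responsive cytochrome, read 1622 in WT chow, 14700 in ob/ob chow and 31710 in NDGA-fed ob/ob, and 16862 and 11735 on the high-fat arrays. WT chow was the lowest by far, and NDGA-fed ob/ob was higher by 3.53 (3.05 to 4.25). Cyp17a1, a steroid hydroxylase, was higher by 2.44 (1.98 to 3.18). The labels do not state the sex of the mice.

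Antioxidant genes lay above lean in part. In the NRF2 list of 21 expressed genes, 9 were higher, 1 lower and 3 near, with a median of 0.91, and 7 of the 9 stayed 2-fold higher under each scaling. NRF2 is the transcription factor that responds to electrophiles and binds antioxidant response elements. In the 250 bases before the start of RefSeq genes (GRCm38.p6), the core of that element, TGACNNNGC, was found on either strand in 10.2% of 32851 promoters. Counting a gene once if any of its promoters matched, it was found for 11.5% of 27025 genes, for 6 of the 19 expressed NRF2 list genes with a promoter in the table and for 4 of the 18 peroxisomal ones. Among the 9 higher NRF2 list genes it was found for 4, Abcc4, Gclm, Htatip2 and Mt2. A match describes the letters only, and binding was not measured. The promoters of Mt2 (chr8:94172368-94172617, plus strand), Htatip2 (chr7:49759262-49759511, plus strand) and Gclm (chr3:122245307-122245556, plus strand) are shown because the core, in capitals, takes the same letters in the first and second and lies on the opposite strand in the third.
Mt2: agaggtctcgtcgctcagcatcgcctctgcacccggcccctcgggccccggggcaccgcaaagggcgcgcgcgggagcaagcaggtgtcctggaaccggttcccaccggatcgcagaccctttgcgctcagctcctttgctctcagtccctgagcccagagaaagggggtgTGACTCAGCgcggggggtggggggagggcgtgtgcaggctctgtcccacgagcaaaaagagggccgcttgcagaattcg
Htatip2: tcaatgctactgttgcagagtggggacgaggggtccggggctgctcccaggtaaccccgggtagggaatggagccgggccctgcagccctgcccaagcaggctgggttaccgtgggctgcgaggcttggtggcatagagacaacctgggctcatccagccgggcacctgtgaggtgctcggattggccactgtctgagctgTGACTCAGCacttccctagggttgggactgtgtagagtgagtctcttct
Gclm: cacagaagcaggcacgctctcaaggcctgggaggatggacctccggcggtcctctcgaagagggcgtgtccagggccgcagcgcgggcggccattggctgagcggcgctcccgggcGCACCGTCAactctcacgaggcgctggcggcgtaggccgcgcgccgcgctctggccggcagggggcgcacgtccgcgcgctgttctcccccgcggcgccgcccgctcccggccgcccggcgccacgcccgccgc

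Mt2, a metallothionein that binds zinc and quenches radicals, read 1439 in WT chow, 1843 in ob/ob chow and 14148 in NDGA-fed ob/ob, and 5550 and 5506 on the high-fat arrays. It was higher by 2.51 (2.05 to 3.25). Htatip2 was higher by 1.58 (1.17 to 2.16), and Gclm, the regulatory subunit of glutathione synthesis, by 1.08 (0.61 to 1.75); both were named for their promoters after their values were seen. Gstm3, a glutathione S-transferase, read 152 in WT chow, 817 in ob/ob chow and 4297 in NDGA-fed ob/ob, and 574 and 241 on the high-fat arrays. Its difference of 3.77 (3.30 to 4.43) was the fourth highest of all expressed genes. Srxn1, which repairs oxidised peroxiredoxins, read 267, 529 and 2824 in WT chow, ob/ob chow and NDGA-fed ob/ob and was higher by 2.51 (2.03 to 3.18). Osgin1, an oxidative-stress-induced growth inhibitor, went the other way: it read 11291 in WT chow, 9091 in ob/ob chow and 3526 in NDGA-fed ob/ob, and 7987 and 2743 on high-fat diet without and with NDGA. Both NDGA arrays were below the 3 others, and NDGA-fed ob/ob was at -2.35 (-2.86 to -1.67) from lean. Hmox1, heme oxygenase, was near at 0.32 (-0.16 to 0.99). Gstm1, 1 of the 3 counted as near, was saturated on both arrays, so its distance from lean was not measured.

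Among 18 expressed targets of the drug-sensing receptors CAR, PXR and AHR, 5 were higher, 1 lower and 3 near. Besides Cyp2b9 and Gstm3, they included Cyp2b13, higher by 1.98 (1.49 to 2.64), and Alas1, the rate-limiting enzyme of heme synthesis, higher by 1.17 (0.68 to 1.89). Alas1 read 10055 in WT chow and 9169 in ob/ob chow, against 37483 in NDGA-fed ob/ob and 26128 and 32725 on the high-fat arrays. Cyp2c29, an arachidonic acid epoxygenase, was the lower one at -1.55 (-2.02 to -0.94). The median of this list was 0.75, and other detoxification lists differed. The CYP2 list, which does not hold Cyp2b9 or Cyp2b13, had 13 expressed enzymes, 0 higher and 3 lower, with a median of 0.05. Of 18 conjugation enzymes, 3 were higher and 1 lower, with a median of 0.37. Of 17 glutathione S-transferases, Gstm3 among them, 3 were higher and 0 lower, with a median of 0.67. Of all expressed genes, 7.46% were higher and 3.21% lower.

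The lipoxygenase and eicosanoid genes, which encode the enzymes that NDGA inhibits and their neighbours, were near lean. Of 29 named, 16 were expressed; 14 of those were near, and 0 were 2-fold higher or lower, with a median of -0.03 (-0.01 to 0.00 relative to all genes over the scalings). Alox5, 5-lipoxygenase, read 330 in WT chow, 265 in ob/ob chow and 277 in NDGA-fed ob/ob, and 189 and 284 on the high-fat arrays. The NDGA-fed ob/ob reading lay within the range of the 4 others before scaling and below all of them after quantile normalization, at -0.77 from lean (-1.21 to -0.22). Alox12, the platelet 12-lipoxygenase, was at 0.24 (-0.21 to 0.78), Alox5ap, the 5-lipoxygenase activating protein, at 0.34 (-0.14 to 1.00), and Ephx2, which hydrolyses epoxy fatty acids, at 0.10 (-0.42 to 0.79). Alox15 did not pass the filter. Transcript levels say nothing of enzyme activity.

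Acute phase genes were above lean in part. Of 21 expressed, 5 were higher, 1 lower and 6 near, with a median of 0.74. Lcn2, a siderophore-binding protein, read 52.1 in WT chow, 290 in ob/ob chow, 1277 in NDGA-fed ob/ob, and 1131 and 175 on the high-fat arrays. It was higher than lean by 3.06 (2.67 to 3.70). Before scaling its reading was close to that on high-fat diet, though the median probe read 71.0 on its array and 39.6 on the high-fat array. Cp, ceruloplasmin, was higher by 1.58 (1.07 to 2.24), with a 2-probe mean of 0.89. Fgb, the fibrinogen beta chain, was at -1.38 (-1.86 to -0.67). Interferon-induced genes leaned below lean: 0 of 21 were higher, 2 lower and 14 near, with a median of -0.36 that was 0.23 unscaled and -0.82 with housekeeping scaling. Of 20 expressed ER chaperones 13 were near, a share close to the 60.8% of all expressed genes. Sdf2l1, a cofactor of the chaperone BiP, was at -1.78 (-2.29 to -1.13).

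Markers of macrophages and of matrix-forming stellate cells were above lean in part. Of 15 expressed macrophage markers of 27 named, 7 were higher, 0 lower and 5 near, with a median of 0.97, beside 0.88 in ob/ob chow. The list's summed intensity was 10232 in WT chow, 15816 and 9075 on high-fat diet without and with NDGA, 16920 in ob/ob chow and 27834 in NDGA-fed ob/ob. The NDGA-fed ob/ob sum was 2.72 times the WT chow sum, against 1.54 times for all genes. The ob/ob chow sum was 1.65 times the WT chow sum, against 0.86 times for all genes. These sums are unscaled, so part of the step between the 2 ob/ob arrays goes with array brightness. Adgre1, a surface receptor of tissue macrophages, read 95.0 in WT chow, 166 in ob/ob chow, 723 in NDGA-fed ob/ob, and 286 and 124 on the high-fat arrays, and was higher by 1.82 (1.38 to 2.41). Mpeg1, a pore-forming protein of macrophages, was higher by 1.61 (1.13 to 2.25), and Cd68 by 1.14 (0.68 to 1.79). Other members of the same list that resident macrophages express were near lean: Clec4f at 0.18 (-0.30 to 0.84), Vsig4 at 0.45 (-0.07 to 1.13) and Marco at 0.05 (-0.36 to 0.55). T cell, B cell and neutrophil markers had 6 of 18 expressed, 0 of them higher or lower, with a median of -0.48.

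Of 23 expressed stellate cell and fibrosis genes, 8 were higher, 0 lower and 10 near, with a median of 0.55, beside 0.56 in ob/ob chow. All 8 stayed 2-fold higher under each of the 7 scalings. Col3a1, a fibrillar collagen, read 198 in WT chow, 527 in ob/ob chow, 1719 in NDGA-fed ob/ob, and 1545 and 366 on high-fat diet without and with NDGA. It was higher than lean by 2.18 (1.71 to 2.83), with a 2-probe mean of 1.10. Ccn2, a matrix-associated growth factor, read 125, 182 and 1259 in WT chow, ob/ob chow and NDGA-fed ob/ob and was higher by 2.28 (1.82 to 2.90). Col1a2, the partner chain of type I collagen, was higher by 1.98 (1.55 to 2.57), and Vim, an intermediate filament of mesenchymal cells, by 1.76 (1.27 to 2.43). Lrat, which stores vitamin A in resting stellate cells, stayed near at -0.05 (-0.43 to 0.40), and Des, their desmin, at -0.45 (-0.95 to 0.21). Acta2, smooth muscle actin, was higher by 1.50, but the mean of its 4 probes was 0.27. Sinusoidal endothelial markers had 3 of 17 higher and 11 near, with Stab2 at 0.67 (0.18 to 1.34) and Lyve1 at 1.11 (0.65 to 1.71).

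A pair of skeletal muscle genes read high on both NDGA arrays. Ckm, muscle creatine kinase, read 316 in NDGA-fed ob/ob and 1501 in wild type on high-fat diet with NDGA, against 11.7 to 12.4 on the 3 arrays without NDGA. Mylpf, a fast-muscle light chain, read 363 and 684 on the NDGA arrays against 31.3 to 41.7, and was higher than lean by 1.79 (1.46 to 2.35). Of 36 muscle genes named, 18 were expressed, with a median of -0.28, and Ckm did not pass the filter. Of the 18, 2 were higher (Tnnt3 and Mylpf), 2 lower (Myh2 at -1.78 and Myh1 at -1.12) and 10 near. Without the filter, 6 of the 36 were higher and 2 lower, beside 696 higher and 281 lower of all 16637 genes. Their summed intensity was 9668 in WT chow, 8036 in wild type on high-fat diet, 8201 in ob/ob chow, 14995 in NDGA-fed ob/ob and 23286 in wild type on high-fat diet with NDGA. Against WT chow the muscle sum was 1.55 times as high in NDGA-fed ob/ob, and the sum of all genes was 1.54 times as high. In wild type on high-fat diet with NDGA these ratios were 2.41 and 0.991. Tnnt3, fast troponin T and one of the 12 highest genes, did not follow Ckm: it read 64.7 in WT chow, 783 in ob/ob chow, 1813 in NDGA-fed ob/ob, and 365 and 215 on the high-fat arrays. Its difference was 3.39 (2.96 to 4.02). The part of muscle RNA in these results was not tested.

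Genes that were at least 2-fold from lean in ob/ob chow were read again in NDGA-fed ob/ob, from comparisons that share the WT chow array. By the rule for naming, 7 list genes were near lean in NDGA-fed ob/ob, and the number they were drawn from is not given here. Of all expressed genes, 60.8% were near. The 7 were picked as far from lean in ob/ob chow, so a nearer second reading is partly a description of that choice. Nudt7, a peroxisomal CoA hydrolase, stood at -1.48 in ob/ob chow and -0.25 in NDGA-fed ob/ob (-0.75 to 0.40). Cyp2d9, a male-biased steroid hydroxylase, stood at -1.32 and -0.06 (-0.57 to 0.61), and Pltp, the phospholipid transfer protein, at -1.06 and -0.01 (-0.53 to 0.67). Oat, an ornithine-degrading enzyme, stood at -1.02 and -0.17 (-0.61 to 0.40). From above, Loxl1, a collagen crosslinker, stood at 1.07 and -0.28 (-0.75 to 0.37). Fcer1g and Vsig4, macrophage membrane proteins, stood at 1.17 and 1.11 in ob/ob chow and at 0.49 (-0.01 to 1.19) and 0.45 (-0.07 to 1.13) in NDGA-fed ob/ob. Unscaled, these last 2 genes were 2-fold above lean in NDGA-fed ob/ob too. Oat was the dimmest of the 7 in ob/ob chow, at 91.0.

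The 12 list genes farthest from lean in NDGA-fed ob/ob, a number set by the rule, ranged from -5.38 to 4.93. Cidea stood at 2.99 in ob/ob chow and 4.93 in NDGA-fed ob/ob, Gstm3 at 2.37 and 3.77, Scd2 at 1.96 and 3.13, and Plin4 at 1.07 and 2.48. Cyp2b9, at 3.48 and 3.53, and Hsd3b5, at -5.30 and -5.38, were the same within 0.1 on both. Susd4 was nearer to lean with NDGA, at -3.29 and -2.61. These 12 were picked as the farthest in NDGA-fed ob/ob, so their distance is a description of that choice.

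**Figure D4:**
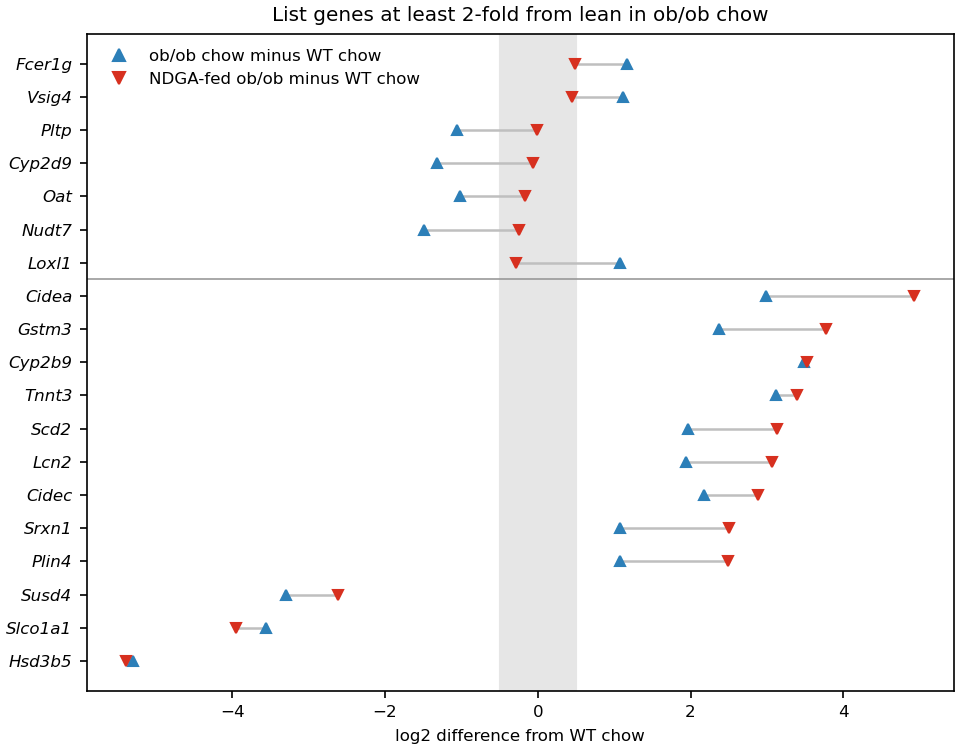
Log2 difference from WT chow (x axis) in ob/ob chow (upward triangles) and NDGA-fed ob/ob (downward triangles) for list genes at least 2-fold from lean in ob/ob chow: the 7 near lean with NDGA above the line, the 12 farthest below it. The grey band is within 0.5 of lean. Nudt7 lies at -1.48 and -0.25, and Hsd3b5 at -5.30 and -5.38.

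Of the 12 highest genes of the whole array, 7 belonged to the fixed lists: Cidea, Gstm3, Cyp2b9, Tnnt3, Scd2, Lcn2 and Cidec. Of the 12 lowest, 2 did. The 12 highest included Olfr1338, an olfactory receptor, which read 5386 on the NDGA-fed ob/ob array and no more than 5.18 on any other. They also held Ly6d, a membrane antigen of epithelia, at 5.08 (4.72 to 5.77), which read 44.2 in WT chow, 1855 in ob/ob chow and 5098 in NDGA-fed ob/ob. Anxa2, a membrane-binding annexin, read 701, 2983 and 14059 on the same arrays and was higher by 3.46 (3.04 to 4.23). For 5 of the 12 highest, and for 10 of all 621 higher genes, the probe read at least 4 times its next-brightest value on the NDGA-fed ob/ob array alone. Receptors and defensins that liver does not use had 178 of 829 above the filter, with 13 lower, 1 higher and a median of -0.40. Their median was 0.12 unscaled, below the 0.54 of all genes, so these probes brightened less than the bulk of expressed genes.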

How the data were processed

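The authors deposited 1 table of linear probe intensity values per array (Phalanx Mouse OneArray, 1 colour, Cy5). The unit was judged from the values: some lie below 0 and some pile up above 65000, taken here as saturated. Scanner, background correction and any scaling by the authors: not given in the sources used here. Of 29922 probes, 21020 carried 1 gene symbol; symbols were updated through a RefSeq table (GRCm38.p6), and a gene took its brightest probe over the 5 arrays. Arrays were quantile normalized, log2(value + 50) was taken, and a gene counted as expressed when the mean of the pair reached the median over genes. Steps ran in Python 3.11.15 with numpy 2.4.6 and pandas 2.3.3 and were tested on simulated data. With 1 array per group there is no test, and the number of arrays limits the precision.

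The comparison and the gene lists were chosen with earlier results of these data known. Genes named are the 12 highest and 12 lowest, per list up to 4 with the largest difference and up to 3 bright ones near lean, list genes 2-fold apart in ob/ob chow that were near or farthest (up to 12 each), Lep, Lepr, Ppara, lipoxygenase genes and cell type markers. Genes saturated on both arrays were not ranked, but they stay in the counts as near. A sum over a list takes the deposited intensity of all its named genes. The 12 alternatives were 6 other scalings, 2 other filters, an offset of 16, the mean of a gene's probes, a floor at the 25th percentile, and leaving out saturated genes. A direct repeat of AGGNCA with 1 base between, the letters read by PPAR-alpha, was found in 0.338% of promoters and in 0 of the 18 peroxisomal and 14 mitochondrial genes with a promoter in the table; repeats with 4 bases between and a sterol element were searched too.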

Additional observations from a re-analysis of the deposited data

How the results depend on the processing

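Of the 36 counts recomputed, 28 stayed within 1.5 times the reported value and 8 did not. Higher genes numbered 2226 with no scaling, 982 with median centring, 155 with housekeeping scaling and 356 with a filter at the 75th percentile. Lower genes numbered 110 with no scaling and 1262 with housekeeping scaling. Near genes numbered 12775 with no filter and 2208 with the 75th-percentile filter, which test more or fewer genes.

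List medians, taken relative to all genes, moved by less than the SD between probes of a gene (0.51) in 630 of 636 recomputations, and none changed sign among lists at least 0.5 from 0. Taking them relative to all genes removes the shift between scalings, so this count does not measure that shift. Without that step, the oxidative phosphorylation median ran from -0.09 with housekeeping scaling to 1.09 unscaled. The 6 list medians that moved by more followed the filter. With the filter at the 75th percentile, the IGF list stood at -0.44, the integrated stress response at 0.83, adipocyte genes at 0.88 and metallothionein and zinc transport at 0.94. With no filter, male-biased genes stood at -0.55 and macrophage markers at 0.46. For named genes, 3509 recomputed differences moved by less than 0.51 and 454 by more, and none of those at least 2-fold apart changed sign. The movement was uneven: with no scaling 296 moved and 42 did not, and with housekeeping scaling 88 moved and 250 did not. Saturation hides 18 expressed genes on both arrays and affects 21 more on 1.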

Other observations

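Most of the 12 lowest genes are not known for high expression in liver, and several shared the same order of arrays. Trpm5, a taste-cell channel, read 16021 in WT chow, 3988 and 6295 in wild type on high-fat diet without and with NDGA, 781 in ob/ob chow and 550 in NDGA-fed ob/ob. Mc1r, the melanocortin receptor of pigment cells, read 36897, 7554, 10899, 2077 and 1621 on the same arrays. Pp2d1 read 7612, 1538, 2323, 254 and 254, and Vash1 read 2392, 641, 945, 244 and 233. Each was brightest on the WT chow array, next on the high-fat NDGA array and dimmest on the ob/ob arrays. The mean over the probes of the gene was -2.71 for Trpm5 and -1.84 for Pp2d1, against -5.36 and -5.20 by the brightest probe, so their other probes did not read the same difference.

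Polr2e, a subunit shared by the nuclear RNA polymerases, read 567, 424 and 531 on the 3 wild-type arrays and was below 0 on both ob/ob arrays, at -9.66 and -3.44. With the offset of 50 it was, with Pp2d1 and Trpm5, 1 of 3 genes among 16637 whose wild-type arrays all lay at least 4-fold above both ob/ob arrays, and 0 genes showed the opposite. This split was looked for after the values were seen, and its cause was not tested.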
